A study of Mus musculus with 5 samples.

Results

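The genes described here are the NF-kB subunits Nfkb1, Nfkb2, Rel, Rela and Relb, the inhibitors and cofactors Nfkbia, Nfkbiz, Bcl3 and Tnfaip3, and the adaptor gene Tifa, in mouse whole colon. They are 10 of the 17943 genes with a symbol that were tested. The set was chosen by the log2 signals of the comparison described below, with those signals already known, so the members' differences are given as a description and support nothing further. All probes of these genes on the array were taken, which gave 15 probes, and each of the 15 was well above background on all 5 arrays.

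The arrays were single-colour Agilent mouse arrays that each held Cy3-labelled RNA from the colon of 1 mouse of strain C57BL/B6. The Control group was 2 wild-type mice that the study calls untreated. The NT-3N group was 3 wild-type mice, 8 weeks old per the study, given NT-3N, a modified human IL-11 that activates the IL-11 receptor, into a vein, with the colon taken 3 h later. The labels give no vehicle injection for Control, so the injection and the agonist cannot be told apart, and no age for Control is used here.

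NF-kB is a family of dimeric transcription factors that rest in the cytoplasm bound to inhibitor proteins of the IkB family. Signals from receptors of the innate immune system and of the TNF family activate the IkB kinase (IKK) complex, which marks the inhibitor for degradation and lets the dimer enter the nucleus. Several of the genes switched on are themselves brakes, so that Nfkbia and Tnfaip3 are commonly used as readouts of recent NF-kB activity. TIFA is a small adaptor that, once phosphorylated by the kinase ALPK1, assembles with TRAF6 and leads to IKK activation. IL-11 itself signals through its receptor chain and gp130, mainly to STAT3. Transcript levels of the subunits say nothing of their nuclear entry, which an array does not measure.

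The stretches just before the transcription starts are shown because the members include both classic NF-kB targets and Tifa. RefSeq starts on GRCm38.p6 were listed for 7 of the 10 members, 11 starts in all. The 250 bases before each start were searched on both strands for the NF-kB consensus motif (the kB motif) and for the STAT motif TTCNNNGAA. The kB motif had 10 matches, overlapping ones counted, before starts of 4 members: Nfkb2, Rel, Nfkbia and Tnfaip3. Of 32851 starts of all genes, 7.25% held the kB motif and 7.02% the STAT motif. These shares are per start, whereas the members are counted by gene over all their starts, so they are not directly comparable. Sequences run 5′ to 3′ along the gene's strand and end at or before the start, and capitals mark matches.
Nfkbia (chr12:55492648-55492706, minus strand): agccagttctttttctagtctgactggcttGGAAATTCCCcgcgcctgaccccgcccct
Tnfaip3 (chr10:19015411-19015565, minus strand): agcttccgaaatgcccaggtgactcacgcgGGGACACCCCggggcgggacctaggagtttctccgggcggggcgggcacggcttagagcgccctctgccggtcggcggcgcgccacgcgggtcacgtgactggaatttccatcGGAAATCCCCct
Rel (chr11:23771021-23771091, minus strand): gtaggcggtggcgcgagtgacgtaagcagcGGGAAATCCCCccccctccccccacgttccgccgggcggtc
Nfkb2 (chr19:46304559-46304736, plus strand): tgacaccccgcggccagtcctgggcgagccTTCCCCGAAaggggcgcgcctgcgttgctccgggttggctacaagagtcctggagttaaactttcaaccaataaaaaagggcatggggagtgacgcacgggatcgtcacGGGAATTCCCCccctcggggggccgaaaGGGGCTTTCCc
Tifa (chr3:127789772-127789871, plus strand): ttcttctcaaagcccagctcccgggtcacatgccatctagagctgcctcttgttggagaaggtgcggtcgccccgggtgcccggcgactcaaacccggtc
Tifa (chr3:127790557-127790656, plus strand): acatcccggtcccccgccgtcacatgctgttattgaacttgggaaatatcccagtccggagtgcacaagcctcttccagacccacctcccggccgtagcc
Bcl3 (chr7:19822756-19822855, minus strand): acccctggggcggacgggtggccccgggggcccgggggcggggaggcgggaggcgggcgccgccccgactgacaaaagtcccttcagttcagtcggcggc

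Not every start is shown, and other kB matches lie before Nfkb2 starts that are left out. The stretches are parts of the 250 bases searched, the last 100 for Tifa and Bcl3. In the Nfkb2 stretch the leftmost capitals are the single STAT match among the members, and the others are kB matches. The Rel run holds 2 overlapping kB matches and so does the longer kB run of Nfkb2. Neither motif was found in the windows of Tifa, Bcl3 or Rela. The members with kB matches had log2 differences between NT-3N and Control of 0.30 (Tnfaip3), 0.14 (Rel), 0.048 (Nfkb2) and 0.0031 (Nfkbia). Those without a match had 1.68 (Tifa), 0.40 (Bcl3) and 0.26 (Rela). A link between matches and differences was not tested. A match of letters is not a bound site, and a window without one says only that these letters are not in it.

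Each array had 70.6% to 73.1% of its 56605 probes well above background, and saturated spots were absent. Correlations between arrays across features lay between 0.980 and 0.992. All 5 arrays shared 1 slide. Colon identity was plain, with 9 of 10 epithelial and 6 of 6 smooth muscle markers measured and mean log2 signals of the lists down to 15.24 and 15.08 on the lowest array. Values below are quantile-normalized log2 signals, and a difference is the NT-3N mean minus the Control mean on that scale. Errors and 95% intervals come from a model fitted over all 32918 features, or over 41590 probes for further probes of a gene. Where a gene had several probes, the brightest stands for it. In whole tissue, fewer cells of a type and less RNA per cell cannot be told apart.

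Tifa was the member that differed clearly. Its log2 signal was 10.73 and 10.78 in the Control mice and 12.36, 12.42 and 12.54 in the NT-3N mice. The controls lay 0.047 apart and the NT-3N mice within 0.17 of each other, and the groups were separated by a gap of 1.58. The difference was 1.68 ± 0.091 (SE, n = 2 and 3), which is 3.21-fold with a 95% interval of 2.76 to 3.73. A further probe for Tifa gave 9.73 and 9.87 against 11.33, 11.49 and 11.47, a difference of 1.63 and a fold of 3.09 with an interval of 2.62 to 3.66. Both Tifa probes thus showed the same separation of every NT-3N mouse from both controls. Tifa ranked 48 of 16734 named genes well above background on all arrays when these were ordered by difference.

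By the brightest probe, all 10 members had a higher mean in NT-3N, though Nfkbia was level at 0.0031. Their median difference was 0.16, against a median of -0.019 over all features, of which 15264 were higher and 17654 lower. Further probes of Nfkb2 and Nfkbiz were lower, at -0.011 and -0.23. In limma at an adjusted p under 0.05, 1 of the 10 members was called higher and none lower. Over all features 0.125% were called higher and 0.0182% lower. The called member was Tifa, and as its selection used this contrast the count is no evidence of its own. The call was lost without NT-3N replicate 2 and without NT-3N replicate 3, where 0 members were called, although the Tifa difference stayed at 1.69 and 1.63. In 3 members, Tifa, Rela and Tnfaip3, every NT-3N array lay above both controls, and in 0 below. Among all features 13.5% lay wholly above and 14.8% wholly below.

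**Figure D1:**
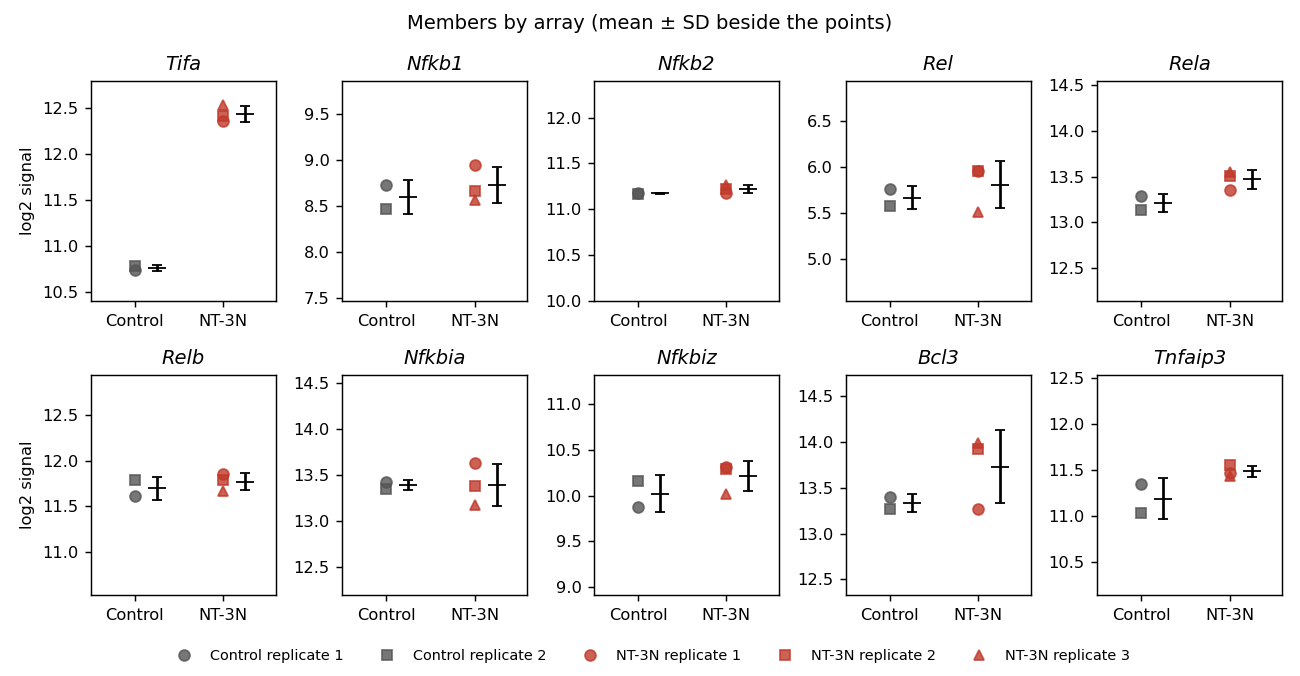
Quantile-normalized log2 signal (vertical axes, each spanning the same range of log2 units) of the brightest probe of each of the 10 members, 1 point per mouse, with group mean ± SD beside the points (Control n = 2, NT-3N n = 3). Tifa runs from 10.73 and 10.78 in Control to 12.36 to 12.54 in NT-3N, whereas in 7 panels the groups overlap and in Rela and Tnfaip3 they are set apart by less than 0.1.

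Among the 5 DNA-binding subunits, Rela, the transactivating subunit of the canonical dimer, had 13.28 and 13.14 in Control and 13.36, 13.50 and 13.55 in NT-3N. The groups did not overlap, but the gap between the higher control and the lowest NT-3N mouse was 0.072. The difference was 0.26, a fold of 1.20 with an interval of 1.02 to 1.40. Its further probe had a difference of 0.27 ± 0.17 and a gap of 0.015.

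Nfkb1 encodes p105, the precursor of the p50 subunit. It had 8.73 and 8.46 in Control and 8.95, 8.66 and 8.57 in NT-3N, with a difference of 0.13 and a fold interval of 0.838 to 1.43. The controls were 0.27 apart, more than the difference between the groups, which overlapped.

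Nfkb2, which encodes the precursor of p52 in the non-canonical pathway, was 11.18 and 11.17 in Control and 11.17, 11.23 and 11.27 in NT-3N. The values were nearly level, with a fold of 1.03 and an interval of 0.898 to 1.19. A further Nfkb2 probe differed by -0.011 ± 0.091.

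Relb, the partner of p52, had 11.61 and 11.79 in Control and 11.85, 11.79 and 11.67 in NT-3N, a fold of 1.05 with an interval of 0.886 to 1.25. Its groups overlapped, and its further probe gave a difference of 0.011. Rel, the c-Rel subunit prominent in lymphocytes, had 5.76 and 5.58 against 5.95, 5.96 and 5.51, with a difference of 0.14 and a fold interval of 0.764 to 1.59. NT-3N replicate 3 lay below both controls for Rel. For the 4 subunits other than Rela the intervals include no change. Their upper ends are 1.19-fold for Nfkb2, 1.25 for Relb, 1.43 for Nfkb1 and 1.59 for Rel. For each gene these arrays could not resolve differences inside its interval.

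Of the IkB family, Nfkbia encodes IkBα, the inhibitor that NF-kB itself induces. Its log2 signal was 13.43 and 13.35 in Control and 13.63, 13.38 and 13.17 in NT-3N. One NT-3N mouse was above, one below and one between the controls, and the group means differed by 0.0031. The fold was 1.00 with an interval of 0.795 to 1.26.

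Bcl3, an atypical IkB protein that acts in the nucleus with p50 and p52, had the widest spread of the members. Its values were 13.40 and 13.26 in Control and 13.27, 13.92 and 13.99 in NT-3N. NT-3N replicate 1 was level with the controls while NT-3N replicates 2 and 3 were well above them, a range of 0.72 within the group. The difference was 0.40 ± 0.22, a fold of 1.32 with an interval of 0.915 to 1.90. Without NT-3N replicate 1 the difference was 0.62.

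Nfkbiz encodes IkBζ, a nuclear cofactor induced by IL-1 and Toll-like receptor signals. Its brightest probe had 9.88 and 10.16 in Control and 10.32, 10.29 and 10.02 in NT-3N, a difference of 0.19 ± 0.14. Its further probe, designed to the same transcript accession, had 8.84 and 9.20 against 8.84, 8.70 and 8.84, a difference of -0.23 ± 0.14. The probes pointed in opposite directions, so no direction is given for Nfkbiz.

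**Figure D2:**
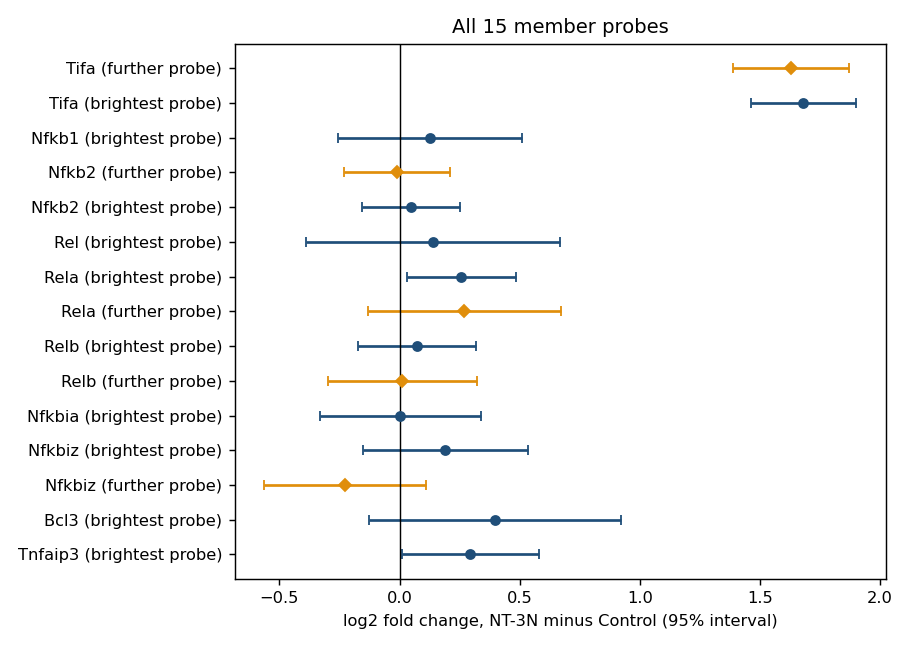
Difference in log2 signal, NT-3N minus Control (horizontal axis), for each of the 15 member probes, with 95% intervals. Dark circles are the brightest probe of a gene, from the fit over features, and orange diamonds its further probe, from a fit over every probe. Both Tifa probes lie at 1.63 and 1.68, and the Nfkbiz probes lie on opposite sides of 0.

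Tnfaip3 encodes A20, a ubiquitin-editing enzyme that shuts off signalling to IKK. It had 11.35 and 11.03 in Control and 11.46, 11.55 and 11.43 in NT-3N. Every NT-3N mouse was above both controls, by a gap of 0.085. The difference of 0.30, a fold of 1.23 with an interval of 1.01 to 1.50, was smaller than the 0.32 between the controls. Leaving out Control replicate 2 gave 0.13, and 0.45 came from leaving out Control replicate 1, so the size of the Tnfaip3 difference depended on the control mouse.

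The genes whose pattern over the 5 arrays was most like that of Tifa were found by centring each gene on its own mean and taking the root mean square difference from Tifa, among 16733 named genes well above background on all arrays. The nearest was Ifitm1, an interferon-induced membrane protein gene, at 0.055 log2 units, with a group difference of 1.77. Ikzf4 (0.083), which encodes the zinc finger factor Eos, Gpr146 (0.088), an orphan receptor gene, Ctps (0.13), which encodes a CTP synthase, and Lbp (0.13), which encodes the lipopolysaccharide-binding protein, came next. Their group differences lay between 1.65 and 1.92. Of 3 further Ikzf4 probes, 1 differed by 1.92 and the others by -0.36 and -0.022, so its likeness to Tifa holds for some of its probes. None of the other 9 members was among these 5. The measure depends on the size of the group difference, so members with small differences could not lie near Tifa.

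Around the members, 62 other genes of the pathway were examined in 4 lists by role, and 59 passed the filter on dim probes. Of the 59, 35 had a higher mean in NT-3N and 24 a lower one, and the median difference was 0.088. In limma 0 of them were called in either direction at an adjusted p under 0.05, and 12 were higher and 1 lower at an unadjusted p under 0.05. Among all 32918 features, 1629 were higher and 1538 lower at that unadjusted level. A local-pooled-error test called 1 of them, Cxcl1, higher. The groups did not overlap for 19 higher and 6 lower genes of the 59, against 13.5% higher and 14.8% lower over all features. The counts of higher genes include Il6, not well above background in either control, and Cxcl1, so in only 1 control. Their differences and p-values therefore rest in part on unmeasured control signals.

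Among 17 adaptors and receptor-proximal genes, 8 were higher and 9 lower, with a median of -0.020. The one with the largest non-overlapping difference was Alpk1, the kinase upstream of TIFA, at 7.44 and 7.39 in Control and 8.05, 8.20 and 8.44 in NT-3N. Every NT-3N mouse was above the controls, but the difference of 0.82 ± 0.15 did not pass (adjusted p = 0.175). Myd88, the adaptor of Toll-like and IL-1 receptors, differed by 0.34 (adjusted p = 0.277). Traf5 and Traf1, adaptors of TNF-family receptors, differed by -0.30 (adjusted p = 0.439) and -0.27 (adjusted p = 0.640). Traf6, the partner of TIFA, had 8.20 and 8.54 against 8.22, 8.19 and 8.26, with overlapping groups.

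Of 12 IKK subunits and upstream kinases, 7 were higher and 5 lower, with a median of 0.033. Map3k8 encodes TPL2, a kinase released from p105 on NF-kB signalling. It had 5.60 and 5.49 in Control and 6.88, 6.81 and 6.72 in NT-3N. Its difference of 1.26 ± 0.16 missed the threshold (adjusted p = 0.069). Map3k14, the kinase NIK of the non-canonical pathway, differed by 0.38 (adjusted p = 0.354). Tbk1 and its partner Tank differed by -0.15 and -0.065 with adjusted p-values of 0.690 and 0.839. The IKK genes Chuk, Ikbkb and Ikbkg differed by 0.10, 0.044 and -0.016, and the groups overlapped for each.

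Of 15 other IkB proteins and brakes, 14 were tested, 8 higher and 6 lower with a median of 0.089, and Tifab, the inhibitor of TIFA, did not pass the filter on dim probes. Tnip2, a partner of A20, had 10.85 and 10.62 in Control and 11.20, 11.26 and 11.58 in NT-3N, a difference of 0.61 (adjusted p = 0.275). Nfkbie, which encodes IkBε, differed by 0.38 (adjusted p = 0.446). In this list 4 of the 14 genes had every NT-3N mouse above both controls and 0 below. Over all features the shares were 13.5% and 14.8%.

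Of 18 genes commonly listed as NF-kB targets, 16 were tested, 12 higher and 4 lower with a median of 0.35, and Cxcl2 and Csf2 did not pass the filter. Icam1, the leukocyte adhesion molecule, was 5.14 in both controls and 5.95, 6.35 and 6.34 in NT-3N, a difference of 1.08 (adjusted p = 0.182). The chemokine gene Ccl2 differed by 0.70 (adjusted p = 0.506) and Ptgs2, the inducible cyclooxygenase gene, by -0.52 (adjusted p = 0.530). A further pair of targets was picked out after their values were seen. Il6 cleared background on 0 of 2 Control and 2 of 3 NT-3N arrays, so it passed the filter only through the NT-3N group. With its controls unmeasured, no fold or p-value is given for Il6, though it is counted among the 12 higher targets and in their median. Cxcl1 was well above background on 1 control array and on all 3 NT-3N arrays (adjusted p = 0.126). Tnf, at 6.88 and 6.96 against 7.30, 6.72 and 6.67, overlapped.

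**Figure D3:**
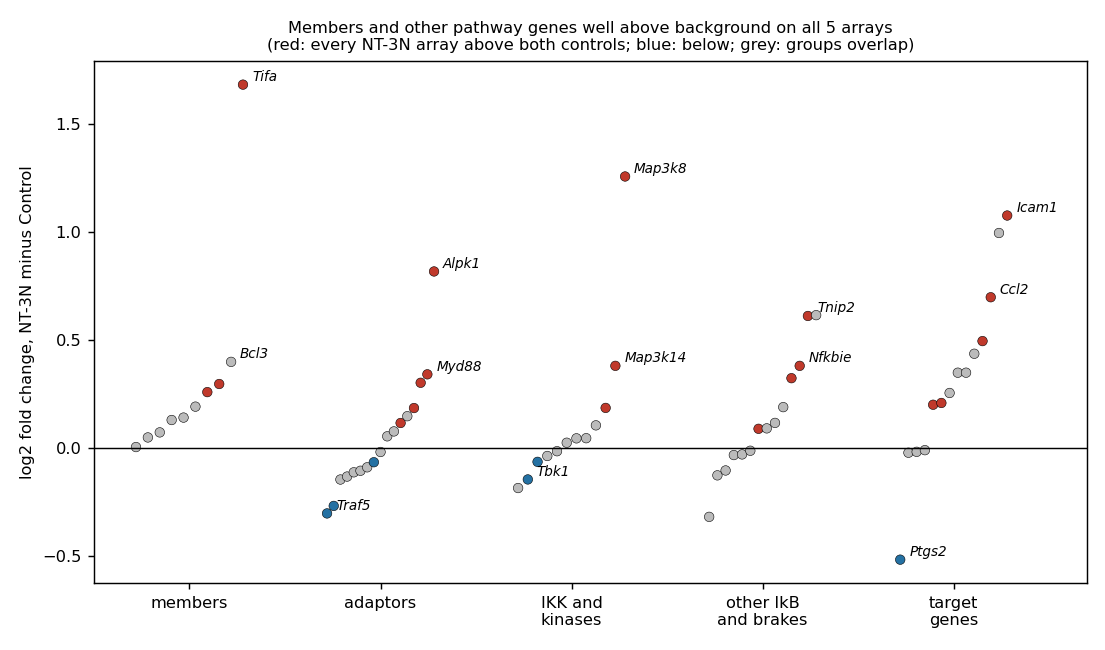
Difference in log2 signal, NT-3N minus Control (vertical axis), of the 10 members and of the genes in the 4 pathway lists that were well above background on all 5 arrays, 1 point per gene. Red points have every NT-3N array above both controls, blue points every one below, and grey points overlap; Tifa at 1.68 and Map3k8 at 1.26 are the highest points of the plot.

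Some markers of other cells lay apart between the groups. All 6 smooth muscle markers had lower means in NT-3N, with a median of -0.28. In 5 of 6 every NT-3N mouse lay below both controls, as did 14.8% of all features. In limma 0 of the 6 were called at an adjusted p under 0.05. Their summed signal was 445680 to 460173 in Control and 326966 to 416456 in NT-3N. Of 7 neutrophil markers 4 were tested. S100a8 and S100a9 were not well above background in either control and were so in all 3 NT-3N mice, at least 3.59-fold and 13.8-fold higher. Both passed the filter only through the NT-3N group, so no p-value is given for them. Csf3r differed by -0.16 and Mmp8 by 0.50, with overlapping groups. Cxcr2 and Retnlg did not pass the filter on dim probes, and no probe was matched to Ly6g. The summed neutrophil signal, in which Csf3r dominates, was 77020 to 78021 in Control and 64061 to 77478 in NT-3N. NT-3N replicate 1 had the highest mean of the neutrophil list (9.10) and the lowest of smooth muscle (15.08), and it was also the NT-3N mouse with the lowest Tifa (12.36) and Bcl3 (13.27). The part of these cells in the Tifa and Bcl3 values was not tested.

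The controls differed in B cell markers, whose summed signal over 8 genes was 5578 in Control replicate 1, 1744 in Control replicate 2 and 5025 to 6104 in NT-3N. Ms4a1, the gene for CD20, went against that sum, at 4.95 in Control replicate 1, 6.53 in Control replicate 2 and 9.54, 9.13 and 9.51 in NT-3N. It was the B cell marker with no overlap between the groups, a difference of 3.65 (adjusted p = 0.059). Pax5 and Cd22 differed by -0.23 and -0.075 with overlapping groups. Control replicate 2 was the lower control for 7 of the 10 members and the higher one for Tifa, Relb and Nfkbiz. Among the targets, the lymphotoxin gene Ltb (10.82 and 9.23 in Control), Cd40 (5.87 and 4.70) and the chemokine gene Ccl20 (8.30 and 6.34) were low in the same mouse, as picked out after their values were seen. Control replicate 1 lay among or above the NT-3N mice for each of Ltb, Cd40 and Ccl20. The part of B cells in these values was not tested. For Tifa the difference was 1.70 with Control replicate 2 left out, and 1.72 with NT-3N replicate 1 left out.

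**Figure D4:**
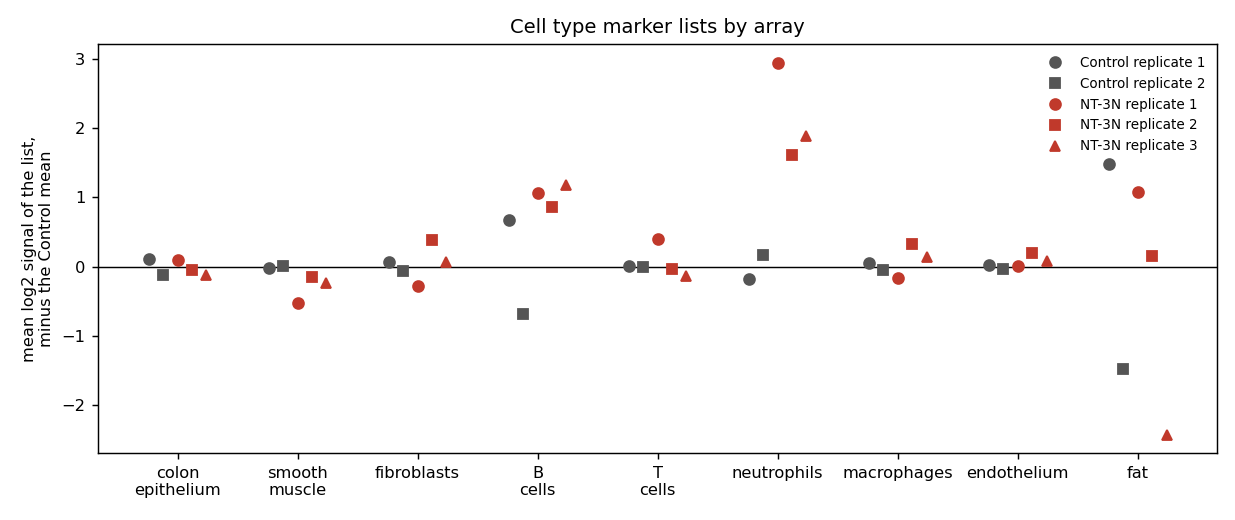
Mean log2 signal of the markers of 9 cell types minus the Control mean (vertical axis), 1 point per mouse, dim markers that passed the filter included. Smooth muscle means of all 3 NT-3N mice lie below both controls, the neutrophil means of the controls rest largely on signals below background and give no measured separation, and the controls are far apart for B cells and fat.

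Under 18 alternative ways of processing, 6 members kept the sign of their difference throughout and 4 changed it at least once. The small differences of Nfkbia, Nfkb1, Relb and Nfkbiz therefore have no settled direction. A sign kept on the same arrays does not settle a direction either, as the intervals of Nfkb2, Rel and Bcl3 include no change. The intervals of Rela and Tnfaip3 lie above no change but are not adjusted for the number of features tested. In limma neither gene was called (adjusted p = 0.474 and 0.506).

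**Figure D5:**
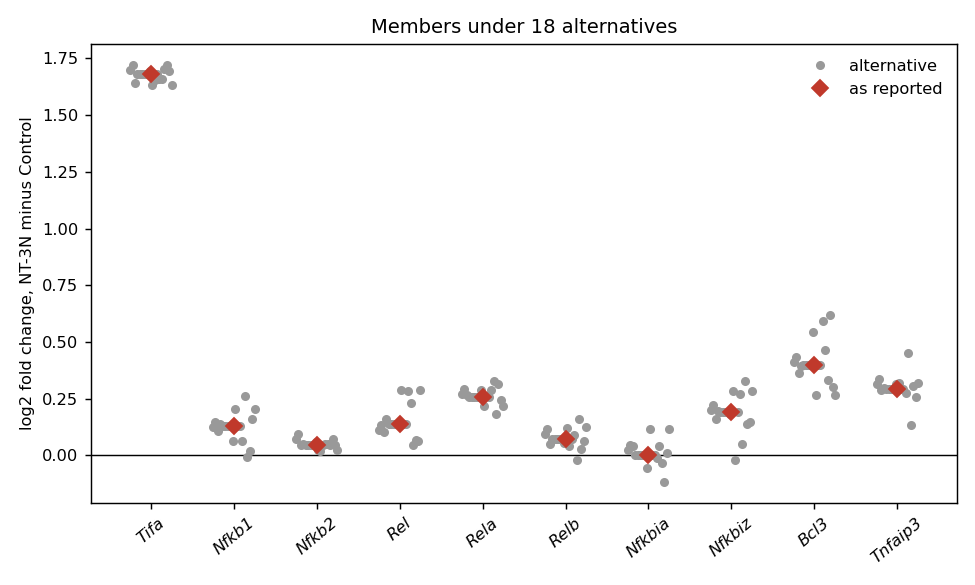
Difference in log2 signal, NT-3N minus Control (vertical axis), of each member as reported (red diamond) and under each of 18 alternative ways of processing (grey points). Tifa stays between 1.63 and 1.72, while Nfkbia, Nfkb1, Relb and Nfkbiz cross 0 under at least 1 alternative.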

How the data were processed

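RNA of whole colon from 2 Control and 3 NT-3N mice was hybridised to single-colour Agilent arrays and read with Feature Extraction 11.0.1.1 per the file headers. The deposited scanner files give, per spot, background-subtracted intensity not scaled between arrays, and median spot and background intensity. The authors also deposited quantile-normalized log2 values of 37380 probes, which matched the scanner values at a correlation of at least 0.9999 and served as an alternative.

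From the scanner files, control spots and 69 to 184 outlier spots of 59305 per array were left out. The processed intensity was log2-transformed, averaged per probe and quantile-normalized. Probes well above background on at least 2 of 5 arrays, with values on both controls and at least 2 NT-3N arrays, were kept. Accessions were matched to RefSeq symbols (GRCm38.p6), which named 32994 of 56605 probes; the brightest probe of a gene was used, giving 32918 features. The array design refers to another build, so positions are given only for RefSeq promoter sequences.

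Groups came from the labels. The test was limma 3.58.1 under R 4.3.3 (lmFit, eBayes with intensity trend, two-sided, Benjamini-Hochberg over all features, adjusted p under 0.05). A local-pooled-error test, named in the study's methods, was rewritten from its published description and run as an alternative. No source ties arrays to handling batches. The p-values set each difference against the spread between these arrays, moderated by the spread of features of like intensity. The number of arrays limits the precision. A bound for a dim gene sets the NT-3N mean against the Control mean, where each control array takes the lowest signal well above background, or the probe's value if that is higher. Named genes were all members and, in each pathway list, the 2 largest rises and 2 largest falls without overlap among genes well above background on all arrays, besides those said to be picked out later and Traf6, Chuk, Ikbkb, Ikbkg and Tnf, which were named for their role with values already seen. Members and lists were chosen with earlier results of these data known. The 18 alternatives cover scaling, background correction, filter, variance model, weights, replicate block, probe rule, test and leaving out each array. The test was checked on simulated data.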

Additional observations from a re-analysis of the deposited data

How the results depend on the processing

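Of 180 member differences recomputed under 18 alternatives, 168 kept their direction and their side of the threshold, 5 kept their direction only (all Tifa) and 7 changed sign. Tifa stayed between 1.63 and 1.72 and was called in 13 alternatives. The count of members called higher was 0, in place of 1, with no filter on dim probes, with no intensity trend and with the replicate block, and ranged from 0 to 1 when an array was left out, with 0 without NT-3N replicate 2 or 3. The count of pathway genes called higher was 2 with array quality weights (Il6, Map3k8) and 1 with the local-pooled-error test (Cxcl1), and ranged from 0 to 1 with an array left out (Cxcl1 without Control replicate 2, Il6 without NT-3N replicate 1). Il6 was not well above background in either control, so its calls rest on unmeasured control signals. Cxcl1 was well above background in only 1 of 2 controls. Its call without Control replicate 2 rests on the control with the lower signal (2.37 against 3.91). Nfkbia was -0.054 with array quality weights, -0.012 with the local-pooled-error test and between -0.12 and 0.12 with an array left out. Nfkbiz was -0.018 with the mean of its probes. With an array left out, Relb ran from -0.018 to 0.16 and Nfkb1 from -0.0048 to 0.26. The causes were not tested. Of all features 47 were called as reported, 2 with no filter and 2 with no trend, 69 with robust variance, 176 with array weights, 0 with the replicate block, 342 with the local-pooled-error test, and 0 to 116 with an array left out. Same-numbered mice of the groups correlated at 0.13 and 0.036 in their deviations, so the numbers were not taken as pairs; with the replicate block the Tifa difference was 1.63. Within 2 and 3 arrays, differences as small as those of the other members lay near the spread between mice.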
